A study of Mus musculus with 8 samples.

Results

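Macroautophagy is the pathway by which a cell wraps cytoplasm, damaged organelles or microbes in a double membrane and delivers them to the lysosome. The ULK1 kinase complex starts the process, a PI3-kinase complex marks the membrane, conjugation enzymes attach LC3 and GABARAP proteins (the ATG8 family) to it, cargo receptors tie cargo to those proteins, and tethering factors bring the finished autophagosome to the lysosome. Macrophages also use parts of this machinery to handle phagocytosed particles. Transcripts of 35 genes of this pathway, chosen by symbol and grouped by step, were followed in macrophages without progranulin, the secreted glycoprotein encoded by Grn that is processed in lysosomes. All 35 were among the 56980 genes of the deposited table, and all 35 passed the filter on low counts that left 12186 genes to be tested.

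The series compared mouse macrophage cultures with and without a constitutive Grn deletion. It held 4 Grn knockout (GrnKO) and 4 wild-type (WT) libraries of bone-marrow-derived macrophages on the C57/Bl6 strain, all given the vehicle DMSO. Each biological replicate came from the pooled bones of more than 1 mouse, was grown with the macrophage growth factor M-CSF at 50 ng/mL, harvested on day 7, frozen, thawed and cultured for 3 days. The labels used here give neither the age of the mice nor the part of Grn that was deleted, and the deletion was not restricted to macrophages.

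The libraries sampled transcript 3′ ends and held 5828180 to 7944860 counts in GrnKO and 7413220 to 8768770 counts in WT cultures. Levels are given as CPM, counts scaled to library size, and were not divided by transcript length because a tag stands for a transcript end. Grn stood at 14.4, 12.96, 13.6 and 12.99 CPM in GrnKO replicates 1 to 4, against 1436, 1498, 1700 and 2027 CPM in WT replicates 1 to 4, and every library matched its label. Of 8 macrophage markers all passed the filter, and 6 (75.0%, against 17.6% of all tested genes) had an unadjusted p under 0.05 without passing edgeR's adjusted threshold. Their median log2 fold change was -0.37, and Adgre1, Itgam, Fcgr1 and Cd14 were lower in every GrnKO library than in any WT library, with a log2 fold change of -0.49 for Adgre1. Cd68 was higher in every GrnKO library than in any WT library (0.29), and Lyz2 stood at 4856 ± 643 CPM in GrnKO and 4976 ± 1289 CPM in WT libraries (SD, n = 4 each). The summed level of 10 neutrophil markers ran from 14.1 to 27.0 CPM in GrnKO and from 43.8 to 156 CPM in WT libraries. S100a8, S100a9 and Ngp were the 3 that could be tested, all lower in GrnKO. Most of the sum was S100a8, averaging 11.9 CPM in GrnKO and 48.5 CPM in WT libraries, and S100a9, averaging 4.43 and 29.1 CPM. Ly6g, Camp, Ltf, Mpo, Elane, Retnlg and Cxcr2 did not pass the filter on low counts, and Ly6g averaged 0.032 CPM in GrnKO and 0.15 CPM in WT libraries. Elane was at 0 in all GrnKO libraries and in all WT libraries but replicate 2, which held 1 count. Markers of dendritic, mast, lymphoid, erythroid and stromal cells summed to at most 3.06 CPM per list in any library. A list of 4 osteoclast markers summed to 2.49 to 6.75 CPM in GrnKO and 0.817 to 2.52 CPM in WT libraries. By group means most of that sum was Acp5, at 4.43 CPM in GrnKO and 1.45 CPM in WT libraries (edgeR adjusted p = 0.064). Calcr, Ocstamp and Oscar did not pass the filter on low counts, and Ocstamp averaged 0.26 CPM in GrnKO and 0.27 CPM in WT libraries. The part of these other cells in the results that follow was not tested.

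Of the autophagy genes, 1 passed the test, and the log2 fold changes of the others lay on both sides of 0. The gene that passed was Tax1bp1, a cargo receptor, which was 1.48-fold higher in GrnKO macrophages. By edgeR's quasi-likelihood test with Benjamini-Hochberg adjustment over all tested genes, 1 of 35 members (2.86%) was called at an adjusted p under 0.05, against 4.25% of all tested genes (2.79% higher and 1.46% lower in GrnKO). At an unadjusted p under 0.05 there were 6 members (17.1%), 4 higher and 2 lower in GrnKO, against 17.6% of all tested genes. Both shares lay near or below the background. The median log2 fold change of GrnKO over WT was 0.02 for the members and -0.03 for all tested genes, and 20 members were above 0; with no scaling factors the 2 medians were -0.05 and -0.10.

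A log2 fold change between -1 and 1 is a change of less than 2-fold either way. The 95% interval lay in that band for 79.6% of all tested genes and for 33 of the 35 members (94.3%). The exceptions were Atg9b and Optn, both of low level. A narrower band of -0.5 to 0.5 held the interval of 14 members, while the interval of the others reached past that band.

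**Figure D1:**
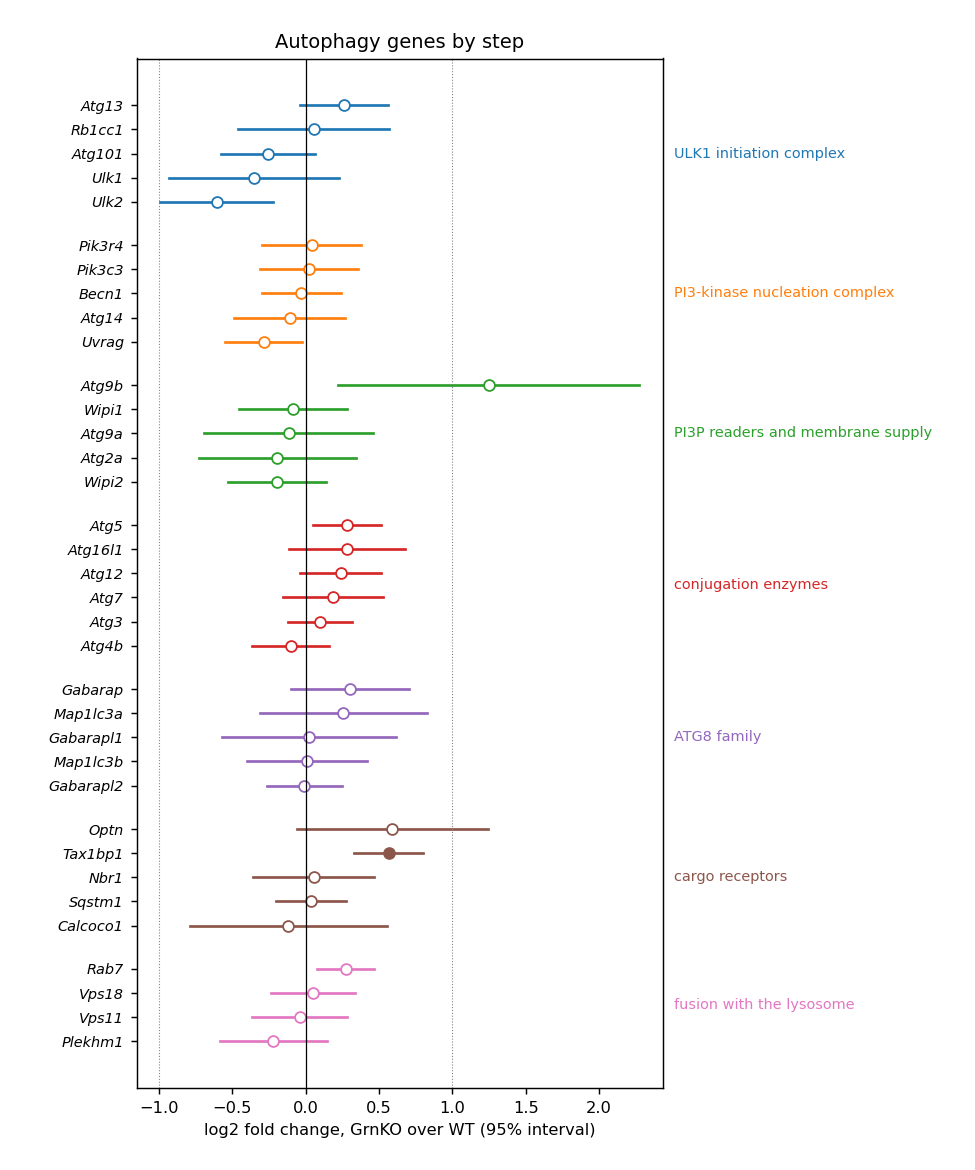
Log2 fold change of GrnKO over WT (horizontal axis) with its 95% interval for the 35 autophagy genes, coloured and grouped by step; the filled circle is the gene with an edgeR adjusted p under 0.05, open circles are the others, and dotted lines mark -1 and 1. Tax1bp1 at 0.57 is the filled circle, and the interval of Atg9b is the widest.

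The ULK1 complex holds the kinase ULK1 or its paralog ULK2 together with the adaptors ATG13, ATG101 and FIP200, the product of Rb1cc1. Its members had a median log2 fold change of -0.26. Ulk2 had the lowest value of all 35 genes. It stood at 122, 118, 114 and 85.7 CPM in GrnKO replicates 1 to 4, against 113, 179.6, 179 and 196 CPM in WT replicates 1 to 4. The GrnKO values lay below WT replicates 2 to 4, while WT replicate 1 fell inside the GrnKO range. The log2 fold change was -0.60 ± 0.18 (SE; edgeR adjusted p = 0.084), which did not pass the threshold.

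Ulk2 had the smallest p of the members that were not called, and whether it was called varied with the processing and with WT replicate 1. Without that library its log2 fold change was -0.75 and its edgeR adjusted p was 0.0049. With that library kept, it was called by DESeq2 (adjusted p = 0.031) and by edgeR with no scaling factors (0.044), with no filter on low counts (0.00065) and with the cell cycle covariate (0.0028). Over all alternatives its adjusted p ran from 0.00065 to 0.25.

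The paralog Ulk1 stood at 74.7, 49.3, 62.5 and 51.2 CPM in GrnKO replicates 1 to 4, against 37.1, 105, 73.5 and 87.6 CPM in WT replicates 1 to 4 (log2 fold change -0.35 ± 0.26, edgeR adjusted p = 0.54). WT replicates 1 and 2 were the lowest and the highest of all libraries. Atg13 was the highest of the step by fold change, at 17.1, 17.6, 16.9 and 17.5 CPM in GrnKO replicates 1 to 4, against 12.7, 15.2, 13.5 and 16.2 CPM in WT replicates 1 to 4. Its groups did not overlap, but the log2 fold change was 0.26 ± 0.14 and the edgeR adjusted p 0.35. Atg101 (-0.26 ± 0.15) and Rb1cc1 (0.06 ± 0.23, log2 fold change ± SE) overlapped between genotypes.

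The PI3-kinase complex makes the lipid PI3P on the forming membrane. Its catalytic subunit is encoded by Pik3c3, its regulatory subunit by Pik3r4 and its scaffold by Becn1, and it joins either ATG14 at autophagosome initiation or UVRAG, which acts in endosome and autophagosome maturation. The 3 subunits common to both forms differed little between genotypes, with log2 fold changes of -0.03 ± 0.12 (Becn1), 0.02 ± 0.15 (Pik3c3) and 0.04 ± 0.15 (Pik3r4). Becn1 averaged 146 ± 13.6 CPM in GrnKO and 149 ± 20.5 CPM in WT macrophages (SD, n = 4 each).

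Pik3r4, the highest of this step by fold change, stood at 30.1, 38.3, 36.1 and 31.7 CPM in GrnKO replicates 1 to 4, against 25.2, 38.8, 31.97 and 36.4 CPM in WT replicates 1 to 4. Uvrag, the lowest, stood at 38.6, 35.5, 39.2 and 47.8 CPM in GrnKO replicates 1 to 4, against 47.9, 47.98, 48.6 and 52.2 CPM in WT replicates 1 to 4. Every GrnKO value of Uvrag was below every WT value, though GrnKO replicate 4 came close to WT replicate 1. Its log2 fold change was -0.29 ± 0.12 (SE; edgeR adjusted p = 0.24), and Atg14 was at -0.11 ± 0.17.

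The next step reads PI3P through WIPI proteins and feeds the membrane with lipid through the transfer protein ATG2A and the scramblases ATG9A and ATG9B. Of its 5 genes, 4 had negative log2 fold changes, of -0.19 ± 0.15 (Wipi2), -0.19 ± 0.24 (Atg2a), -0.12 ± 0.26 (Atg9a) and -0.08 ± 0.17 (Wipi1). Wipi2, which recruits the conjugation machinery and was the lowest of the step, stood at 28.1, 22.4, 25.0 and 21.1 CPM in GrnKO replicates 1 to 4, against 22.1, 30.3, 26.7 and 31.5 CPM in WT replicates 1 to 4. The groups overlapped (edgeR adjusted p = 0.56).

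Atg9b was the exception in direction, and the least well counted member. It stood at 2.08, 3.91, 2.75 and 3.18 CPM in GrnKO replicates 1 to 4, from 14 to 25 counts a library, against 1.31, 1.93, 1.51 and 0.136 CPM in WT replicates 1 to 4, from 1 to 16 counts. Every GrnKO value was above every WT value, yet WT replicate 4 rested on a single count. The log2 fold change was 1.25 ± 0.47 and did not pass the threshold (SE; edgeR adjusted p = 0.18). The 3′ end of Atg9b overlaps Nos3, the endothelial nitric oxide synthase gene, on the opposite strand in the annotation, and no source used here gives the strand setting of the count. Nos3 itself averaged 1.22 CPM in GrnKO and 0.736 CPM in WT libraries. Reads of the ubiquitous paralog Atg9a, at 8.64 ± 1.51 CPM in GrnKO and 9.36 ± 3.30 CPM in WT macrophages (SD, n = 4 each), could be split with an annotated transcript, Gm29253, that shares its 3′ end. Gm29253 averaged 8.72 CPM in GrnKO and 9.04 CPM in WT libraries, about the level of Atg9a.

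**Figure D2:**
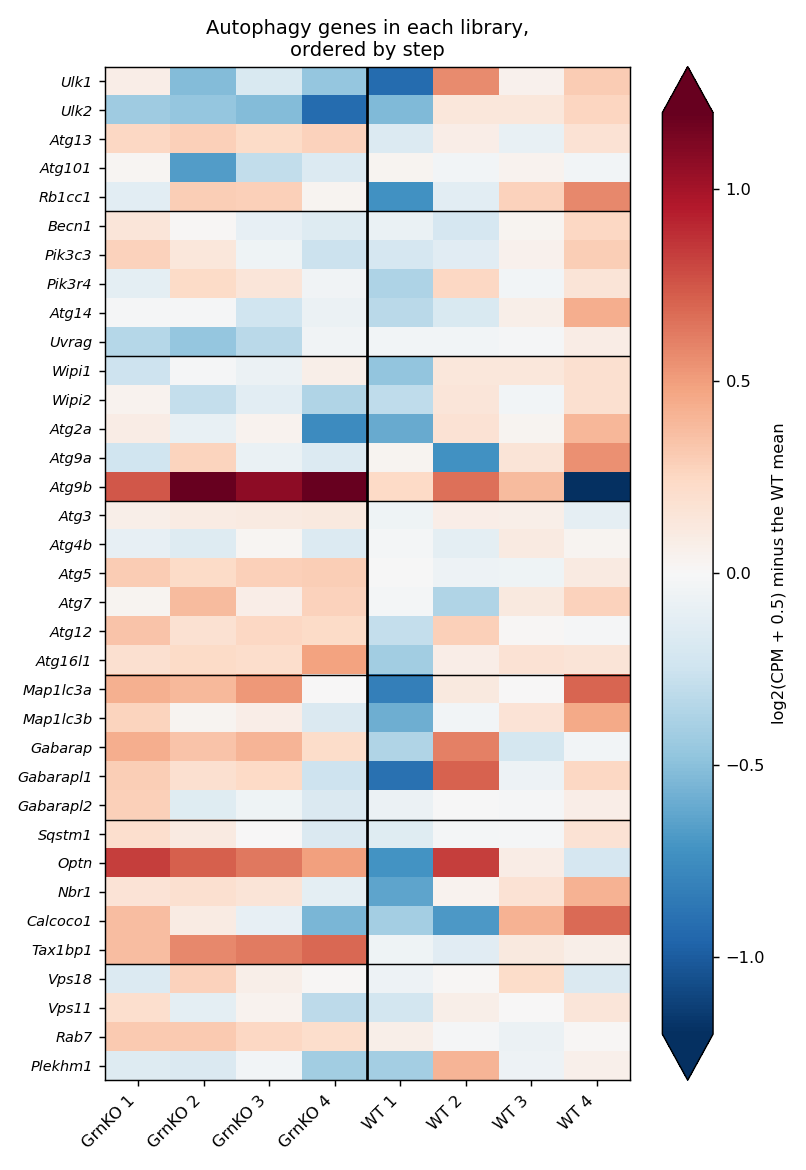
Level of each autophagy gene (rows, ordered by step from initiation at the top to lysosomal fusion at the bottom) in each library (columns, GrnKO left of WT), as log2(CPM + 0.5) minus the mean of the 4 WT libraries. Tax1bp1 and Rab7 are among the genes that are red in every GrnKO column, and the WT 1 column is blue for most genes, with a mean of -0.30.

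The conjugation enzymes work as 2 linked ubiquitin-like systems. ATG7 is the activating enzyme of both, ATG3 transfers LC3 to lipid, ATG4B trims it, and ATG12 joined to ATG5 and ATG16L1 directs where lipidation occurs. Of their 6 genes, 5 had a positive log2 fold change (median 0.21), and each change was at most 1.22-fold. None of the 6 was called by edgeR, DESeq2 or limma, and Atg5 alone had an unadjusted edgeR p under 0.05. Positive values were held by 45.8% of all tested genes.

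Atg5 had the largest value, at 39.9, 38.0, 39.4 and 39.6 CPM in GrnKO replicates 1 to 4, against 32.2, 31.0, 31.1 and 34.9 CPM in WT replicates 1 to 4. The groups stood apart with little spread in either, and the change was 1.22-fold (log2 fold change 0.28 ± 0.11, edgeR adjusted p = 0.19). Atg16l1, at 12.4 ± 1.26 CPM in GrnKO and 10.2 ± 1.89 CPM in WT macrophages (SD, n = 4 each), had nearly the same log2 fold change, 0.28 ± 0.18 (SE), and its groups were also without overlap, by a gap between 11.6 CPM in GrnKO replicate 1 and 11.5 CPM in WT replicate 3. Atg12 (0.24 ± 0.13), Atg7 (0.19 ± 0.16) and Atg3 (0.10 ± 0.10) followed with overlapping groups. Atg4b was the lowest of the step, at 25.2, 24.1, 27.5 and 23.95 CPM in GrnKO replicates 1 to 4, against 26.5, 24.8, 29.1 and 27.6 CPM in WT replicates 1 to 4 (log2 fold change -0.10 ± 0.12).

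The ATG8 family is the coat that these enzymes attach, and cargo receptors and fusion factors bind to it. Map1lc3b encodes LC3B, the usual marker of autophagosomes. It stood at 665, 565, 586 and 491 CPM in GrnKO replicates 1 to 4, against 369, 541, 621 and 759 CPM in WT replicates 1 to 4. The GrnKO values lay inside the WT range, and the log2 fold change was 0.01 ± 0.19 (SE; edgeR adjusted p = 0.98, interval -0.40 to 0.42). Near-identical processed copies of Map1lc3b exist, and the most counted of them, Gm6055, averaged 2.54 CPM in GrnKO and 1.93 CPM in WT libraries. A stretch of 112 bases of its 3′ end also matched transcripts of other genes at over 95% identity, so its count could hold reads of theirs.

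Gabarap, whose product acts late in autophagosome maturation, stood at 368, 343, 360 and 316 CPM in GrnKO replicates 1 to 4, against 211, 413, 234 and 264 CPM in WT replicates 1 to 4. The GrnKO libraries were above all WT libraries but replicate 2, which was the highest of the 8. The difference was 0.31 ± 0.18 on the log2 scale (edgeR adjusted p = 0.42), and without WT replicate 2 it was 0.55 and was called (edgeR adjusted p = 0.021). Of the 8 fits that leave out a library, only that one called Gabarap.

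Gabarapl1 was likewise highest in WT replicate 2, at 122, 113, 117 and 83.2 CPM in GrnKO replicates 1 to 4, against 52.9, 162, 95.03 and 118 CPM in WT replicates 1 to 4 (log2 fold change 0.02 ± 0.27). Gabarapl2 stood at 333, 247, 265 and 242 CPM in GrnKO replicates 1 to 4, against 260.4, 273, 271 and 289.8 CPM in WT replicates 1 to 4 (-0.01 ± 0.12). Map1lc3a, the gene for LC3A, stood at 41.5, 40.5, 44.2 and 30.7 CPM in GrnKO replicates 1 to 4, against 17.2, 33.3, 30.8 and 50.1 CPM in WT replicates 1 to 4 (0.26 ± 0.26). All 5 ATG8 genes overlapped between the genotypes.

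Cargo receptors bind ubiquitin or organelle proteins on one side and LC3 or GABARAP on the other. Tax1bp1 encodes a receptor for ubiquitinated aggregates and bacteria that also restrains inflammatory signalling through the ubiquitin editor A20. It stood at 251, 289.7, 298 and 313 CPM in GrnKO replicates 1 to 4, against 187, 176, 211 and 204 CPM in WT replicates 1 to 4. Every GrnKO library was above every WT library, the nearest being GrnKO replicate 1 at 251 CPM and WT replicate 3 at 211 CPM. The log2 fold change was 0.57 ± 0.11 (SE; edgeR adjusted p = 0.012, interval 0.33 to 0.80), and by p it ranked 232 of the 12186 genes tested. In a bulk culture more RNA per cell and more cells of a type that expresses the gene cannot be told apart.

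The Tax1bp1 difference was as large without WT replicate 1 (log2 fold change 0.55, edgeR adjusted p = 0.012) and with the level of cell cycle genes as a covariate (0.56, 0.0028), a fit added after the data were seen. The call was lost without GrnKO replicate 3 (0.55, edgeR adjusted p = 0.054) and with the replicate number as a block (0.57, 0.062). Both fits left the size of the change in place. Without GrnKO replicate 2 the edgeR adjusted p was 0.049, and without GrnKO replicate 4 it was 0.045. The 250 bases before one of its RefSeq starts, chr6:52713479-52713728 on the plus strand of GRCm38.p6, are shown because it is the member that passed the test.
Tax1bp1: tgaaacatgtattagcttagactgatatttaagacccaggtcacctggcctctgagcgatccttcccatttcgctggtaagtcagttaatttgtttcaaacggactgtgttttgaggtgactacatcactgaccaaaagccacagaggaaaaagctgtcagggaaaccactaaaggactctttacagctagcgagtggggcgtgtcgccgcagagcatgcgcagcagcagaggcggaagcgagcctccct
No other annotated gene overlapped its last 500 bases, and no transcript of another gene matched them at 95% identity over 75 bases or more. The neutrophil marker sum was lower in every GrnKO library, and its part in this difference was not tested.

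**Figure D3:**
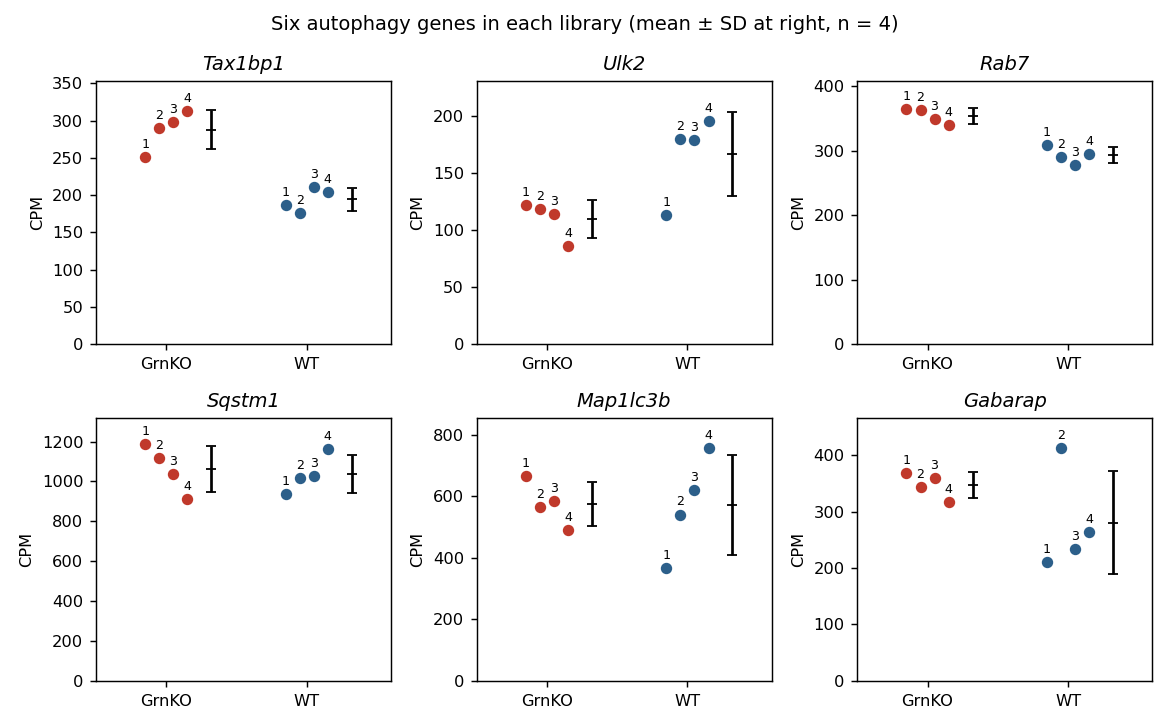
CPM (vertical axis, from 0) of 6 autophagy genes in each library, numbered by replicate, with GrnKO in red on the left and WT in blue on the right of each panel; black bars give the mean ± SD (n = 4). Tax1bp1 and Rab7 show no overlap between the genotypes, Ulk2 overlaps through WT replicate 1, and the WT values of Map1lc3b run from 369 to 759 CPM.

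Sqstm1 encodes p62, the receptor for ubiquitinated cargo whose protein accumulates when autophagy is blocked and whose gene is a target of the oxidative stress factor NRF2. It was the most counted of the receptors and did not pass the test. It stood at 1186, 1115, 1036 and 913 CPM in GrnKO replicates 1 to 4, against 935, 1018, 1025 and 1164 CPM in WT replicates 1 to 4. The ranges covered each other almost fully, with a log2 fold change of 0.04 ± 0.11 (SE; edgeR adjusted p = 0.90) and an interval of -0.20 to 0.28. The data are transcript levels and hold no measure of the p62 protein.

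Optn encodes optineurin, a receptor for damaged mitochondria and bacteria. It stood at 12.5, 11.5, 10.8 and 9.81 CPM in GrnKO replicates 1 to 4, against 3.94, 12.5, 7.30 and 5.86 CPM in WT replicates 1 to 4. Every GrnKO library was above WT replicates 1, 3 and 4, and WT replicate 2 was level with the highest GrnKO library. The log2 fold change was 0.59 ± 0.30 (edgeR adjusted p = 0.33), a value as large as that of Tax1bp1 with a wider error, and 0.97 without WT replicate 2 (edgeR adjusted p = 0.051).

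Calcoco1, a receptor in turnover of the endoplasmic reticulum and the lowest of the step, stood at 21.1, 17.4, 15.1 and 10.96 CPM in GrnKO replicates 1 to 4, against 12.1, 9.89, 21.8 and 26.3 CPM in WT replicates 1 to 4 (log2 fold change -0.12 ± 0.31). Nbr1, whose product works with p62 on aggregates and peroxisomes, averaged 139 ± 13.3 CPM in GrnKO and 134 ± 37.4 CPM in WT macrophages (SD, n = 4 each; log2 fold change 0.06 ± 0.19).

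The last step joins the autophagosome to the lysosome. RAB7 is the GTPase that marks late endosomes and lysosomes, PLEKHM1 is its adaptor to the tethering complex HOPS, and VPS11 and VPS18 are core subunits of that complex. Rab7 stood at 365, 364, 349 and 339 CPM in GrnKO replicates 1 to 4, against 308, 291, 278 and 295 CPM in WT replicates 1 to 4. Every GrnKO library was above every WT library, and the SD was 12.3 CPM in GrnKO and 12.5 CPM in WT libraries. The difference was 0.27 ± 0.09 on the log2 scale (SE; edgeR adjusted p = 0.12) and was called by DESeq2 alone of the tools run (adjusted p = 0.024).

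Plekhm1 was the lowest of this step, at 47.0, 46.5, 51.2 and 39.4 CPM in GrnKO replicates 1 to 4, against 39.6, 69.7, 50.2 and 55.0 CPM in WT replicates 1 to 4 (log2 fold change -0.22 ± 0.17). The HOPS subunits among the members differed little, at 0.05 ± 0.13 for Vps18 and -0.04 ± 0.15 for Vps11.

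Across the steps, 7 members (20.0%) had groups without overlap, 6 with GrnKO above WT (Atg13, Atg9b, Atg5, Atg16l1, Tax1bp1 and Rab7) and Uvrag with GrnKO below WT. Groups did not overlap in 12.0% of all tested genes, 6.88% with GrnKO above and 5.10% with GrnKO below WT. Apart from Tax1bp1 and Atg9b these differences were at most 1.22-fold.

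Of the 7 steps, the median log2 fold change was lowest for the ULK1 complex (-0.26), followed by PI3P readers and membrane supply (-0.12) and the PI3-kinase complex (-0.03), and was 0.00 for fusion, 0.02 for the ATG8 family, 0.06 for cargo receptors and 0.21 for conjugation; with no scaling factors those of fusion (-0.07), the ATG8 family (-0.05) and cargo receptors (-0.01) were below 0. The order turned on single libraries. Without GrnKO replicate 2 the ULK1 complex (-0.14) was no longer below PI3P readers and membrane supply (-0.16), without WT replicate 2 the ATG8 family (0.27) was above conjugation (0.19), and without WT replicate 4 the cargo receptor median was 0.20. Each median rests on 4 to 6 genes, and differences between steps were not tested.

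The spread within the WT group was wide. The SD of log2 CPM was larger in WT than in GrnKO libraries for 27 of the 35 members (77.1%), and likewise for 70.2% of all tested genes. Of the WT libraries, replicate 1 gave the lowest level of 23 members (65.7%), against 29.2% of all tested genes. Within GrnKO, replicate 4 was the lowest for 18 members (51.4%), against 28.2% of all tested genes. Averaged by step, WT replicate 1 was the lowest WT library in all 7 steps, while GrnKO replicate 4 was the highest GrnKO library for the conjugation enzymes.

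The libraries lowest in this spread had the highest levels of cell cycle genes. The mean of the 35 members on the log2 scale, relative to the WT mean, was 0.14, 0.11, 0.10 and -0.03 in GrnKO replicates 1 to 4, against -0.30, 0.07, 0.07 and 0.16 in WT replicates 1 to 4. The summed level of 8 cell cycle genes was 1766, 1591, 1615 and 2349 CPM in GrnKO replicates 1 to 4, against 2838, 2053, 1985 and 1129 CPM in WT replicates 1 to 4. In each genotype the library with the most cell cycle transcript had the lowest autophagy mean. The ATG8 genes showed it most among the steps, with a mean of -0.55 in WT replicate 1 and 0.29 in WT replicate 4. The summed level of 8 macrophage markers, most of it Lyz2, was 6150 CPM in GrnKO replicate 4 and 5267 CPM in WT replicate 1, against 6825 to 9305 CPM in the other libraries. The markers did not share 1 pattern, since Cd14 (155 CPM) and Fcgr1 (52.3 CPM) were highest of all libraries in WT replicate 1. The part of either set of genes in the spread was not tested.

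**Figure D4:**
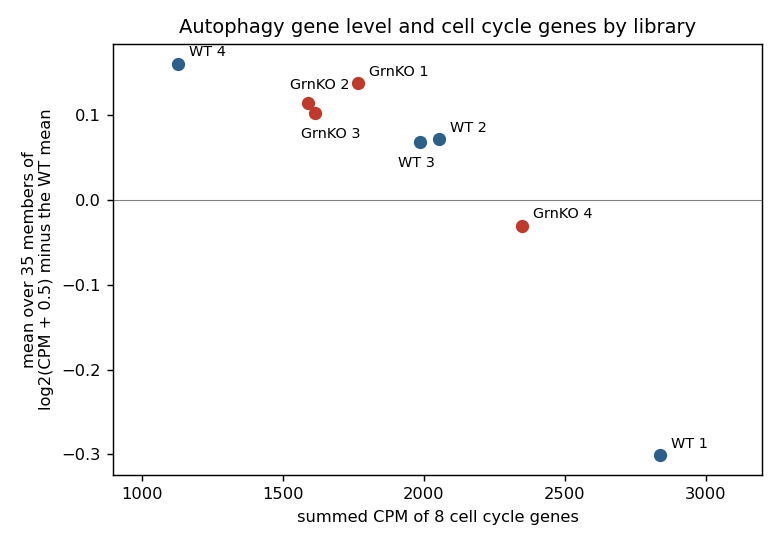
Mean over the 35 autophagy genes of log2(CPM + 0.5) minus the WT mean (vertical axis) against the summed CPM of 8 cell cycle genes (horizontal axis, which does not start at 0), 1 point a library, GrnKO in red and WT in blue. WT replicate 1, at 2838 CPM, has the lowest mean (-0.30), and WT replicate 4, at 1129 CPM, the highest (0.16).

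A further list held 50 autophagy genes, 28 of the general machinery and 22 receptors for organelles and other cargo. With edgeR, 1 was called (2.00%, against 4.25% of all tested genes), and the median log2 fold change was 0.07. The gene called was Tmem41b, which encodes a scramblase of the endoplasmic reticulum needed for autophagosome formation. It stood at 76.7, 89.1, 79.2 and 91.1 CPM in GrnKO replicates 1 to 4, against 55.1, 49.8, 58.4 and 50.2 CPM in WT replicates 1 to 4. The groups stood well apart, with a log2 fold change of 0.65 ± 0.11 (SE, edgeR adjusted p = 0.0070). With the replicate number as a block, 0 of the 50 genes were called, against 1.81% of all tested genes. Next by p came Atg16l2, a paralog of Atg16l1, at -0.57 ± 0.15 (edgeR adjusted p = 0.058), and Wdfy3, whose product ALFY is a scaffold for aggregate clearance, at -0.59 ± 0.16 (0.071).

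LC3 can also be attached to single membranes in LC3-associated phagocytosis, which in macrophages requires the NADPH oxidase. Of 7 genes of that route, edgeR called 1 (14.3%, against 4.25% of all tested genes), Cyba, the p22phox subunit, at 347 ± 26.5 CPM in GrnKO and 239 ± 24.1 CPM in WT macrophages (SD, n = 4 each; log2 fold change 0.54 ± 0.11, edgeR adjusted p = 0.015). The other 6 ran from -0.44 (Rubcn, the regulator Rubicon) to 0.11 (Rac2). Cybb, the catalytic subunit, was at -0.09 ± 0.12.

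Autophagy genes are controlled by transcription factors such as TFEB and the FOXO proteins. Among 9 such factors, which include Tfeb, Tfe3, Mitf and Foxo3, log2 fold changes ran from -0.46 (Foxo1) to 0.27 (Tfeb), with 1 (11.1%, against 17.6% of all tested genes) at an unadjusted p under 0.05 (Foxo1, edgeR adjusted p = 0.21). Tfeb averaged 27.5 ± 5.21 CPM in GrnKO and 22.8 ± 4.53 CPM in WT macrophages (SD, n = 4 each). TFEB and its relatives are controlled mainly by their location in the cell, which these data do not measure.

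TFEB family factors bind the palindrome CACGTG, in lysosomal genes often within the longer CLEAR motif. RefSeq promoter windows on GRCm38.p6, an older build than the GRCm39 of the counts, from 250 bases before to 50 after a start, were matched for 28 of the 35 members. CACGTG, which reads the same on both strands, was present in a window of 4 of the 28 (14.3%), namely Atg7, Atg5, Atg14 and Atg3, and in 8.09% of the 27025 genes with a window. Its extension TCACGTGA, which contains it, was present for Atg3 alone, in 3.23% of member windows and 0.974% of all windows. A longer form that contains this extension was also searched. It was found in 0 of the 28 matched members and in 0.37% of the 27025 genes. At so low a share, absence from 28 genes carries little information. The stretches that hold the match are shown so that the sites can be compared, with CACGTG or TCACGTGA in capitals and the rest in lower case.
Atg3: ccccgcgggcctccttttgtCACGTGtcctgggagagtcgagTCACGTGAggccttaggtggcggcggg
Atg5: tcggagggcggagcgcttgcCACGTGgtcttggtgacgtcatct
Atg7: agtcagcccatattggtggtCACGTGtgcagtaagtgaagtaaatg
Atg14: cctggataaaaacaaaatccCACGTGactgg
The Atg3 stretch is chr16:45158715-45158783 on the plus strand, with matches that begin 94 and 71 bases before the start. That of Atg5 is chr10:44268305-44268348 (plus strand, 14 bases before the start), that of Atg7 chr6:114670944-114670989 (plus strand, 132 bases before) and that of Atg14 chr14:47568425-47568455 (minus strand, 1 base before). Their log2 fold changes were 0.10 (Atg3), 0.28 (Atg5), 0.19 (Atg7) and -0.11 (Atg14). Tax1bp1 had no CACGTG in either of its windows. These matches describe letters in a window and give no measure of binding.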

How the data were processed

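The authors deposited estimated counts per gene made with Salmon and GRCm39, per the submitters' processing notes, which name no version. Libraries were 3′ mRNA tags with molecular identifiers to remove PCR duplicates, per the labels' protocols. Of the non-zero expected counts deposited, 36.4% were not whole, and counts were rounded. The log2 CPM values deposited by the authors, with a prior count added, served as an alternative only. Symbols came from the deposited gene table.

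Sample titles gave the groups. GrnKO was compared with WT over the whole table with edgeR 4.0.16 in R 4.3.3 (filterByExpr, TMM, robust dispersions, quasi-likelihood F test, Benjamini-Hochberg adjustment, threshold 0.05). Standard errors follow from the F statistic, and 95% intervals from it and the fit's degrees of freedom. Any pair of libraries of a group differed by a chi-square statistic per degree of freedom of at least 3.02, so none was a copy of another. The statistic cannot tell whether libraries shared a culture. CPM values use TMM-scaled library sizes, with 3 counts equal to 0.33 to 0.53 CPM. Library means used log2(CPM + 0.5). Fits were tested on simulated data.

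Alternatives were DESeq2 1.42.0, limma 3.58.1 (voom, and trend on 2 log2 CPM scales), other scaling, filters and thresholds, non-robust dispersions, the replicate block and leaving out each library; a cell cycle covariate was added after the data were seen. Near-identical 3′ ends and overlaps were sought in GENCODE M21 on GRCm38, which is not the authors' build, so none of its coordinates are printed. Members, steps and lists were chosen with earlier results of these data known. Per-library values are given for called members, Sqstm1, the ATG8 family and the highest and lowest of each step; other members are given by fold change or mean. Of the other lists, called genes and the ends of a range are named. Some values fall outside that rule and were chosen after they were seen. They are the per-library values of Ulk1, Tfeb's mean, Atg16l2, Wdfy3, Cybb, Nos3, Gm29253, Gm6055 and the named macrophage, neutrophil and osteoclast markers. No batch is given in the labels.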

Additional observations from a re-analysis of the deposited data

Results flagged for a closer look

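A gap between 1 library and the other 3 of its group that was large for the group's range was found for 4 of 70 sets of values, the 35 genes in each genotype; chance gives about 1 in 20, or 3.5. Nbr1 stood at 119 CPM in GrnKO replicate 4, against 144 to 148 CPM in the other GrnKO libraries. Atg16l1 stood at 14.3 CPM in GrnKO replicate 4, against 11.6 to 11.9 CPM in the others. Wipi1 stood at 15.9 CPM in WT replicate 1, against 24.4 to 25.5 CPM in the other WT libraries, and Uvrag at 52.2 CPM in WT replicate 4, against 47.9 to 48.6 CPM. The libraries named are those with the highest cell cycle sums of their genotype for 3 of the 4 genes, and the lowest for Uvrag. Of those 3 genes, Nbr1 and Wipi1 stood low in that library and Atg16l1 stood high. The part of the cell cycle genes in these gaps was not tested.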

How the results depend on the processing

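The count of called members was 1 of 35 (2.86%) in the reported fit. It was 2 (5.71%) with no scaling factors, with no filter on low counts, at an adjusted p under 0.1 and with the cell cycle covariate. The second gene each time was Ulk2. The count was 3 (8.57%, against 7.1% of all tested genes) with DESeq2 (Tax1bp1, Ulk2 and Rab7), and 0 at an adjusted p under 0.01. Leaving out a library gave 0 to 2. Over all 12186 tested genes, 518 were called (4.25%, 340 higher, 178 lower), and 562 with no scaling factors (4.61%, 281 higher, 281 lower). DESeq2 called 865 (7.1%). With no filter 918 were called, but out of 36571 genes, a lower share (2.51%). The count was 209 at 0.01, 836 at 0.1 and 1155 with the cell cycle covariate. Without a library it was 267 to 942, the highest being without WT replicate 1. Of the 50 other autophagy genes, 1 was called (2%), and 2 (4%, against 4.31% of all tested genes) from the deposited log2 values. The count was 3 (6%) with no scaling factors, with DESeq2 or at 0.1. It was 4 (8%) with no filter or the covariate, and 1 to 3 without a library. With the replicate number as a block, 220 genes (1.81%) were called in all, 0 members and 0 of the 50. In that fit Tax1bp1 had an edgeR adjusted p of 0.062. The labels do not say whether the replicate numbers pair the samples. Deviations of log2 CPM from each gene's genotype mean correlated between same-numbered libraries at -0.08, -0.15, 0.16 and -0.41. With 4 libraries a genotype, these correlations cannot decide whether the numbers mark a pairing. The leave-one-out fit without GrnKO replicate 3 was the one with 0 members called. Those without WT replicate 1 (Ulk2) and WT replicate 2 (Gabarap) had 2. The cause of these changes was not tested. The members' median log2 fold change stayed between -0.07 and 0.09, and 14 uncalled members changed sign in at least 1 alternative. With no scaling factors the median of all genes was -0.10. Tax1bp1 was called in 17 of 19 alternatives at the 0.05 threshold, with a log2 fold change from 0.50 to 0.63.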
